A study of Homo sapiens with 9 samples.

Results

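The genes of the NF-kB subunits and of the IkB proteins that bind them were followed in HEK293T cells given PLK2, PLK2(D223N) or an empty vector. The set was chosen by gene symbol and holds 10 of the 17083 genes in the deposited table. The canonical subunit genes are NFKB1, RELA and REL, the non-canonical ones NFKB2 and RELB, the cytoplasmic inhibitors NFKBIA, NFKBIB and NFKBIE, and the atypical IkB genes NFKBIZ and BCL3. All 10 passed the filter on low counts and were tested.

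HEK293T cells derive from human embryonic kidney and express the SV40 large T antigen. All 9 cultures were unedited HEK293T cells (genotype WT in the labels). They overexpressed FLAG Vector in 3 libraries (Vector), PLK2(D223N)-FLAG in 3 and PLK2-FLAG in 3, and the labels give the 3 libraries of a group as biological replicates. PLK2 is a serine/threonine kinase of the polo-like family, and D223N is a substitution in its kinase domain. Neither the time after plasmid delivery nor whether expression was transient or stable is stated in the sources used.

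NF-kB proteins are dimeric transcription factors that bind kappaB sites in DNA. In the canonical pathway, signals from cytokine and pattern-recognition receptors activate the IKK complex, whose kinase IKKβ (gene IKBKB) phosphorylates IkB proteins such as IkBα (NFKBIA). The IkB protein is then degraded and dimers such as p50 with RelA enter the nucleus. In the non-canonical pathway the kinases NIK and IKKα drive the processing of p100, the product of NFKB2, to p52, which pairs with RelB. Several genes of the family are themselves known NF-kB targets, which gives the pathway feedback loops.

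Several NF-kB genes are known to hold kappaB sites near their start sites, so the promoter windows are shown first. RefSeq windows of GRCh38.p14, from 250 bases before to 50 after a start site, were matched for 8 of the 10 genes, and RELB and NFKBIE were not searched here. A match to the kappaB consensus, searched on both strands, was found for 7 of the 8, the exception being RELA, and in 9 of their 14 windows. Of all 35116 windows 5.91% held a match, and of all 27305 genes with a window 7.09% did. The SP1 box GGGCGG, searched the same way, was in windows of 8 of the 8 genes and of 48.3% of all genes. A match is a run of letters and not a measured binding site. Read 5′ to 3′ on the gene's strand, with the match in capitals and 9 bases on each side, the stretches for the genes on which the results below turn, and for NFKB1 and NFKBIB as genes whose RNA did not pass any test, were these.
NFKB2: ggtattttcGGGACTTTCCtaagctgct
NFKBIA: gactggcttGGAAATTCCCcgagcctga
REL: gtcagccgcGGGAAATTCCCctcccgcca
NFKB1: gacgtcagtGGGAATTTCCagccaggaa
NFKBIB: ggcgtggtgGGGAATTTCCCgcagggcgg

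The NFKB2 stretch lay at chr10:102395675-102395702 on the plus strand, with its match starting 21 bases before a start site, and overlapped an exon of GENCODE release 29. NFKB2 had 4 matches over its 3 windows, the most of the set, but it also had the most windows searched. The NFKBIA stretch lay at chr14:35404812-35404839 on the minus strand, 81 bases before the start site and outside the gene. The REL stretch was at chr2:60881518-60881546 on the plus strand, 47 bases before a start site, and overlapped an exon. For NFKB1 the stretch was at chr4:102501301-102501328 on the plus strand, 49 bases before the start site and outside the gene. That of NFKBIB was at chr19:38899932-38899960 on the plus strand, 28 bases before a start site and in an intron of a longer transcript. The relation between matches and expression was not tested.

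RNA was measured as estimated counts per gene, and library totals ran from 14288165 to 16510186. Spread was widest among Vector libraries, where the chi-square per gene was 18.1 between Vector replicates 1 and 2 and 10.9 between replicates 1 and 3, against 2.71 between replicates 2 and 3 and 1.63 to 2.83 for the 6 pairs within the other groups. Deviations from each gene's mean over all 9 libraries (log2, median over genes) were taken by transcript GC content. Vector replicate 1 lay 0.23 below that mean for the 25% of genes with the lowest GC content and 0.15 above for the 25% with the highest. The epithelial markers KRT8 and KRT18 were at 23.7 and 69.6 TPM, while EPCAM and CDH1 were at 2.74 and 1.4 TPM. Of the 9 macrophage and microglia markers listed, 6 were in the table. Their highest counts in a library were 36 for ITGAM, 16 for CD68, 10 for CX3CR1, 8 for CD14, 5 for P2RY12 and 2 for CSF1R. Their summed level was 3.39 to 3.79 CPM in Vector libraries, 1.73 to 2.80 with PLK2(D223N) and 3.22 to 3.55 with PLK2. None of the 6 was at 0 in every library, 2 of them had enough counts to be tested and neither passed in any comparison, and their part in the results was not tested. PLK2 RNA followed the labels, at 3.41 CPM with Vector, 12352 with PLK2(D223N) and 23733 with PLK2. PLK2 RNA was thus 1.92-fold higher with PLK2 than with PLK2(D223N) (log2 0.94, SE 0.09, edgeR quasi-likelihood adjusted p = 4.99e-05). The substitution and the amount of PLK2 RNA cannot be told apart in that comparison.

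Per length, in deposited TPM, RELA and NFKB1 were the most abundant of the 10 RNAs in all 3 groups. Means over the 9 libraries were 46.8 TPM for RELA, which carries the main transactivating subunit, and 35.5 for NFKB1, which encodes p105 and p50. NFKBIB followed at 31.6 TPM, REL at 30.4 and NFKBIA at 26.8. A gap separated these 5 from the rest, which ran from NFKB2 at 8.07 and NFKBIE at 6.29 down to NFKBIZ at 3.49, RELB at 2.69 and BCL3 at 0.968 TPM. The non-canonical subunit genes were therefore the scarce subunits of this line, with RELB in Vector libraries at 1.53 ± 0.25 TPM against 47.6 ± 3.3 for RELA (SD, n = 3).

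The order of the levels was not resolved for every pair of neighbours. In Vector libraries NFKBIB overlapped with REL, REL with NFKBIA and NFKB2 with NFKBIE. In PLK2(D223N) libraries NFKB1 overlapped with NFKBIB, NFKBIB with REL, and RELB with BCL3. In PLK2 libraries the levels of NFKB1, REL, NFKBIA and NFKBIB formed a chain in which each overlapped with the next. RELB was ninth of the 10 in Vector and PLK2(D223N) and eighth in PLK2 libraries, where its 4.94 to 5.39 TPM did not overlap with the 3.71 to 4.22 of NFKBIZ. NFKBIA moved from the fifth place to the fourth and NFKBIB from the third to the fifth in PLK2 libraries.

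**Figure D1:**
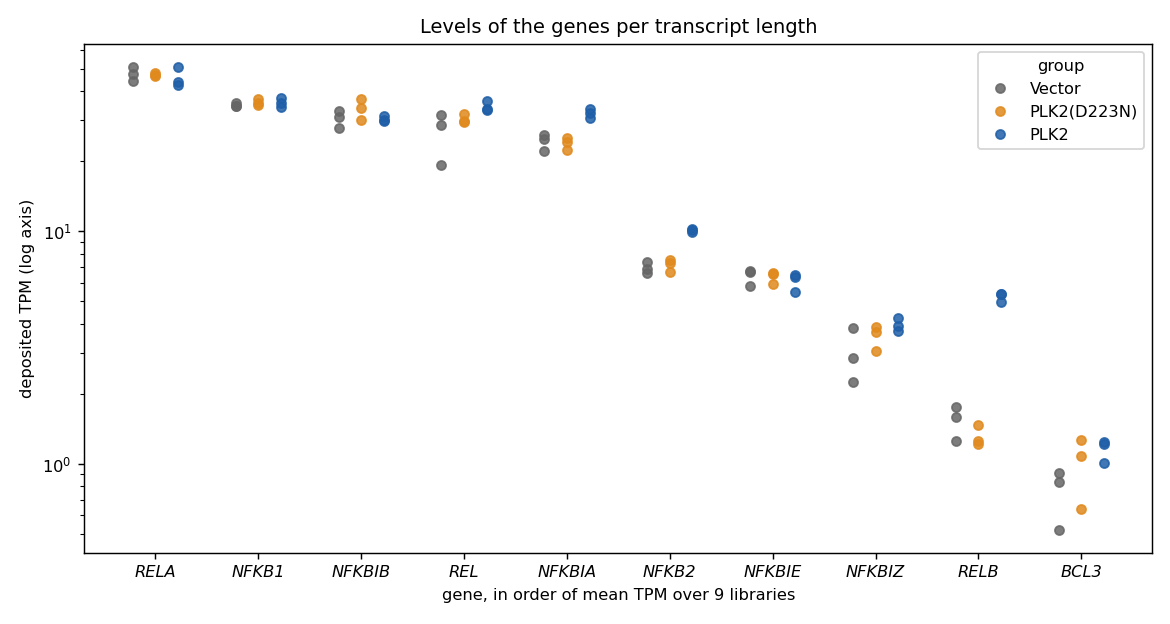
Deposited TPM of the 10 genes (log axis) by library, with points for the 9 libraries coloured by group. RELA at 46.8 and NFKB1 at 35.5 TPM lead, and RELB is the gene whose PLK2 points, at 4.94 to 5.39 TPM, lie furthest above those of the other groups.

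Relative to Vector, PLK2 libraries had more RNA of both non-canonical subunit genes, and no member was called lower. RELB rose 3.45-fold and NFKB2 1.46-fold, each past the edgeR quasi-likelihood test at a Benjamini-Hochberg adjusted p below 0.05. The remaining 8 genes did not pass. Of all 12924 genes tested, 0.48% were called higher and 0.031% lower, so 2 of 10 is well above the share of all genes, although the set was chosen with results of these data known. With PLK2(D223N), 0 of 10 passed in either direction, where 0.0232% of all genes were called. An unadjusted p below 0.05 was found for 0 of the 10 there, against 8.53% of all genes, and the DESeq2 Wald test and limma on log2(TPM + 1) also called 0. Compared directly, PLK2 libraries were higher than PLK2(D223N) libraries for RELB, NFKB2 and NFKBIA, 3 of 10 against 0.155% of all genes, and 0 were lower, against 0.00774%. An unadjusted p below 0.05 was found for the same 3 and for 6.04% of all genes. The 3 comparisons share libraries pairwise and are not independent of each other.

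RELB encodes the transactivating partner of p52 and lies on GRCh38 chromosome 19 from 45001430 to 45038198, plus strand. Its level in Vector replicates 1, 2 and 3 was 1.43, 1.87 and 1.72 CPM. In PLK2(D223N) libraries it was 1.3, 1.54 and 1.29 CPM, and in PLK2 libraries 5.95, 6.02 and 5.33 CPM. The lowest PLK2 library was thus above the highest of the other 6, while the other groups overlapped. Against Vector the log2 fold change was 1.79 (SE 0.16, 95% interval 1.46 to 2.12, edgeR adjusted p = 1.69e-05). Against PLK2(D223N) it was 2.06 (SE 0.16, 1.72 to 2.40, edgeR adjusted p = 1.14e-05). PLK2(D223N) against Vector gave -0.27 (SE 0.20, -0.70 to 0.16, edgeR adjusted p = 0.678). RELB is scarce, with 79 estimated counts over the 3 Vector libraries, 67 over PLK2(D223N) and 273 over PLK2 libraries. It ranked 14th of 12924 genes by fold change against Vector, where PLK2 itself was first, and 6th against PLK2(D223N). This order takes no account of the counts behind each value.

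NFKB2 encodes p100, which is both the precursor of p52 and an inhibitor of the dimers it holds in the cytoplasm (chromosome 10, 102394110 to 102402529, plus strand). It was at 12.1, 10.1 and 10.9 CPM in Vector replicates 1 to 3 and at 11.4, 10.98 and 10.3 CPM in PLK2(D223N). PLK2 libraries gave 16.6, 16.0 and 16.0 CPM. Again all 3 PLK2 libraries were above all others and the remaining groups overlapped. Against Vector NFKB2 rose by 0.55 on the log2 scale (SE 0.09, 95% interval 0.36 to 0.73, edgeR adjusted p = 0.00789). Against PLK2(D223N) it was 0.57 (SE 0.09, 0.39 to 0.76, edgeR adjusted p = 0.00840), and between PLK2(D223N) and Vector -0.02 (SE 0.09, -0.22 to 0.17, edgeR adjusted p = 0.936). Without Vector replicate 1 the value against Vector was 0.62 (edgeR adjusted p = 4.26e-05), in a fit that called 362 genes in all instead of 66. The calls were lost more often than those of RELB. Against Vector the edgeR adjusted p was 0.0666, 0.0660 or 0.0518 without PLK2 replicate 1, 2 or 3. Against PLK2(D223N) it was 0.0646 or 0.107 without PLK2(D223N) replicate 2 or 3, 0.0773, 0.0615 or 0.0521 without PLK2 replicate 1, 2 or 3, and 0.0639 with limma on log2(TPM + 1).

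The canonical subunit genes did not pass in any comparison. NFKB1 (chromosome 4, 102501329 to 102617302, plus strand) ranged from 65.6 to 73.8 CPM over the 9 libraries, with a log2 fold change of 0.04 (SE 0.05, 95% interval -0.08 to 0.16, edgeR adjusted p = 0.725) for PLK2 against Vector. For RELA (chromosome 11, 65653596 to 65663094, minus strand) the range was 52.7 to 65.6 CPM and the log2 fold change -0.06 (SE 0.07, -0.22 to 0.09, edgeR adjusted p = 0.665). These intervals bound a rise of NFKB1 at 0.16 and of RELA at 0.09, both under the lower bound of 0.36 for NFKB2. PLK2 against PLK2(D223N) gave 0.07 (SE 0.05) for NFKB1 and 0.0036 (SE 0.07) for RELA.

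REL, whose product c-Rel is best known from lymphoid cells, lies on chromosome 2 from 60881521 to 60931610 on the plus strand. Its Vector libraries differed widely, at 124, 189.9 and 174 CPM. PLK2(D223N) libraries were at 188, 174 and 178 CPM, and PLK2 libraries at 204, 208 and 218 CPM. The PLK2 libraries were above all 6 others, yet the log2 fold change against Vector of 0.37 (SE 0.11, 95% interval 0.14 to 0.60) had an edgeR adjusted p of 0.130. Against PLK2(D223N) it was 0.22 (SE 0.11, -0.0048 to 0.45, edgeR adjusted p = 0.846). The lowest library is Vector replicate 1. The longest REL transcript has 38.7% GC, under the 41.8% that bounds the 25% of genes with the lowest, and the part of GC content in the REL values was not tested on its own. Without that library the log2 fold change against Vector was 0.21 with an edgeR adjusted p of 0.000993, and against PLK2(D223N) 0.22 with 6.82e-05. With GC content and length trends removed from every library it was 0.25 (edgeR adjusted p = 0.00726) and 0.21 (0.0470). Without Vector replicate 2 it was 0.50 against Vector (edgeR adjusted p = 0.00838), and in a fit to the 6 PLK2 and PLK2(D223N) libraries 0.22 (3.54e-07). All of these fits called more genes in all than the main fit, which called 66 against Vector and 21 against PLK2(D223N). Without Vector replicate 1 the totals were 362 and 317, and with the trends removed 379 and 92. The last 2 fits called 1656 and 502.

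**Figure D2:**
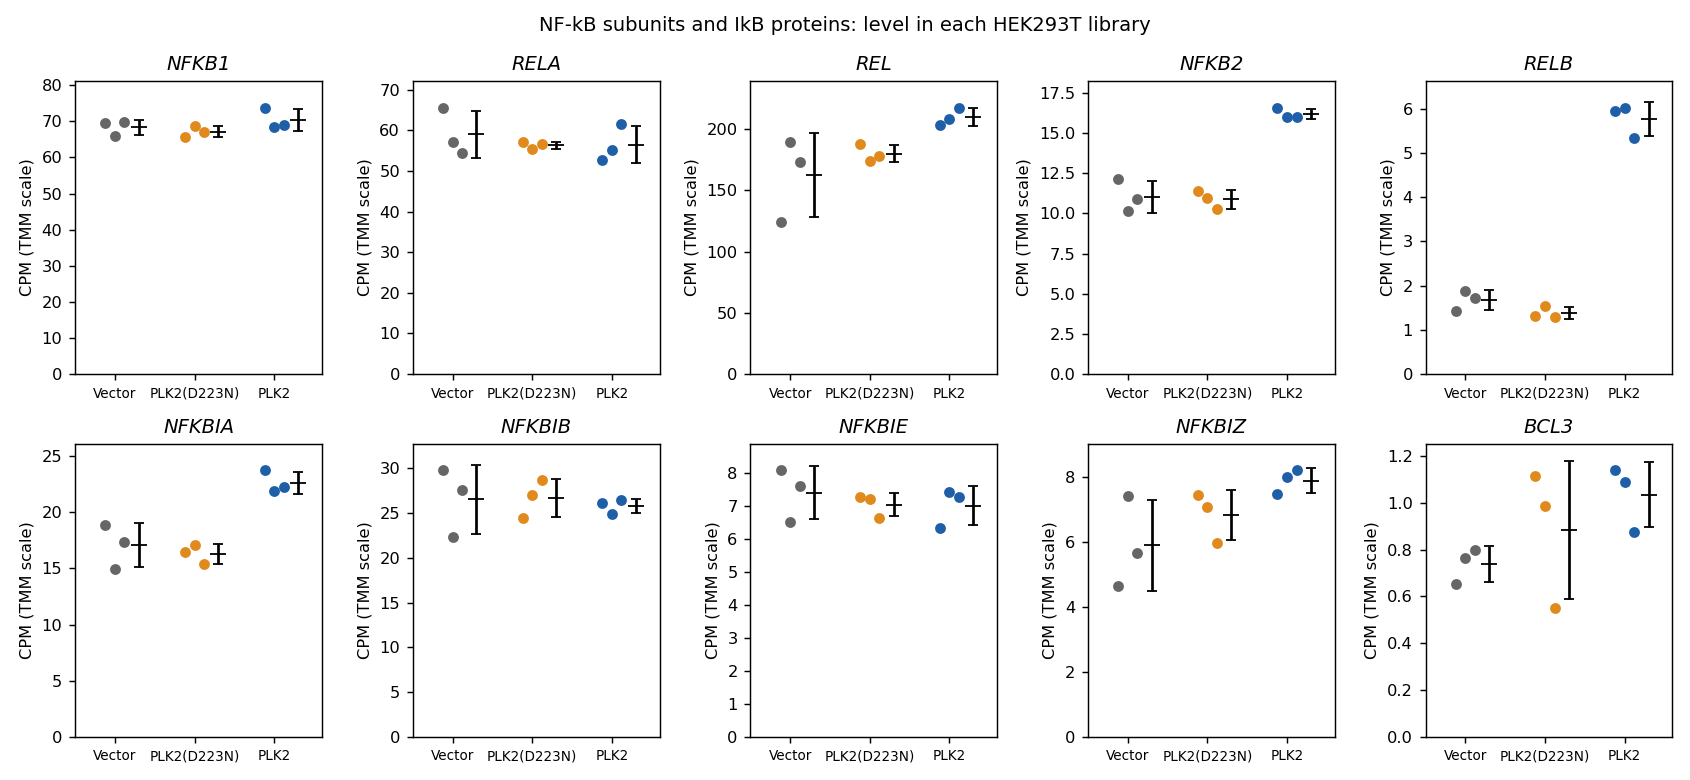
CPM of each gene in the 9 libraries, 1 panel per gene, with a dash and bar for the group mean and SD (n = 3). In the RELB, NFKB2, NFKBIA, REL and NFKBIZ panels all 3 PLK2 points lie above the other 6, for NFKBIZ narrowly, and the lowest REL point, 124 CPM, is Vector replicate 1.

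Among the cytoplasmic inhibitors, NFKBIA passed in 1 comparison and NFKBIB and NFKBIE in none. NFKBIA encodes IkBα, the main inhibitor resynthesised after canonical signalling (chromosome 14, 35401511 to 35404749, minus strand). It was at 18.9, 15.0 and 17.3 CPM in Vector libraries, 16.4, 17.1 and 15.4 with PLK2(D223N), and 23.7, 21.9 and 22.2 with PLK2. The PLK2 libraries did not overlap with either other group. Against PLK2(D223N) the gene rose by 0.47 on the log2 scale (SE 0.09, 95% interval 0.29 to 0.66, edgeR adjusted p = 0.0388). Against Vector the value was 0.40 (SE 0.09, 0.22 to 0.59), just outside the threshold at an edgeR adjusted p of 0.0511.

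Both NFKBIA results sat near the threshold. Against Vector the edgeR adjusted p was 0.000236 without Vector replicate 1, 0.0197 without Vector replicate 2 and 0.241 without PLK2 replicate 1. In the same order these fits called 362, 1656 and 22 genes in all. The adjusted p was 0.0353 by the DESeq2 Wald test. Against PLK2(D223N) the call was lost in 9 of the 19 alternatives, with edgeR adjusted p-values of 0.0763 without Vector replicate 3, 0.206, 0.161 and 0.343 without PLK2(D223N) replicates 1, 2 and 3, and 0.309, 0.198 and 0.212 without PLK2 replicates 1, 2 and 3. With limma on log2(TPM + 1) the adjusted p was 0.104. The log2 fold change itself stayed between 0.32 and 0.48 against Vector and between 0.41 and 0.51 against PLK2(D223N).

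NFKBIB and NFKBIE encode IkBβ and IkBε. NFKBIB (chromosome 19, 38899700 to 38908893, plus strand) ranged from 22.3 to 29.8 CPM over the 9 libraries, and NFKBIE (chromosome 6, 44258166 to 44265788, minus strand) from 6.33 to 8.08 CPM. Neither passed in any comparison. PLK2 against Vector gave -0.04 (SE 0.09, 95% interval -0.24 to 0.16, edgeR adjusted p = 0.833) for NFKBIB and -0.08 (SE 0.11, -0.33 to 0.16, edgeR adjusted p = 0.715) for NFKBIE. The upper bounds of both lay below the lower bound of 0.22 for NFKBIA in the same comparison.

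The atypical IkB genes were scarce and imprecise. NFKBIZ (chromosome 3, 101827991 to 101861022, plus strand) encodes IkBζ, a nuclear cofactor, and was at 4.63, 7.42 and 5.65 CPM in Vector libraries, 7.45, 7.09 and 5.96 with PLK2(D223N), and 7.47, 8.01 and 8.21 with PLK2. BCL3 (chromosome 19, 44747705 to 44760044, plus strand), whose product binds p50 and p52 homodimers, was at 0.653, 0.763 and 0.799 CPM in Vector libraries, 1.12, 0.987 and 0.553 with PLK2(D223N), and 1.14, 1.09 and 0.877 with PLK2. In both genes the PLK2 libraries lay above the Vector libraries, for NFKBIZ by the narrow gap from 7.42 to 7.47 CPM. The PLK2(D223N) libraries of both overlapped with Vector, and those of BCL3 with PLK2 as well. PLK2 against Vector gave 0.43 (SE 0.15, 95% interval 0.12 to 0.75, edgeR adjusted p = 0.192) for NFKBIZ and 0.49 (SE 0.30, -0.15 to 1.12, edgeR adjusted p = 0.404) for BCL3. BCL3 rested on 35 counts over the Vector libraries and 49 over the PLK2 libraries. Its interval holds both no change and the 0.55 seen for NFKB2. Without Vector replicate 2, NFKBIZ was 0.62 higher (edgeR adjusted p = 0.00842), in a fit that called 1656 genes in all instead of 66. That fit keeps Vector replicate 1, the library with the lowest NFKBIZ level.

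Side by side, the classes differed in how many members passed. For PLK2 against Vector these were 0 of 3 canonical subunits (median log2 fold change 0.04), 2 of 2 non-canonical subunits (1.17), 0 of 3 cytoplasmic inhibitors (-0.04) and 0 of 2 atypical IkB genes (0.46). Over the 10 genes the median was 0.39, against -0.0044 for all genes tested. An unadjusted p below 0.05 was found for 5 of the 10 and for 16.4% of all genes. In 6 of the 10, namely RELB, NFKB2, REL, NFKBIA, NFKBIZ and BCL3, every PLK2 library was above every Vector library, against 10% of all genes. In 0 of the 10 every PLK2 library was below, against 10.1% of all genes. PLK2 against PLK2(D223N) gave 0 of 3 (0.07), 2 of 2 (1.32), 1 of 3 (-0.0058) and 0 of 2 (0.22), with a median of 0.22 over the 10. There 5 of the 10 lay wholly above, the same genes save BCL3, against 11% of all genes, and 0 wholly below, against 9.49%. PLK2(D223N) against Vector gave a median of -0.03, and 0 of the 10 were free of overlap, against 13.9% of all genes.

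**Figure D3:**
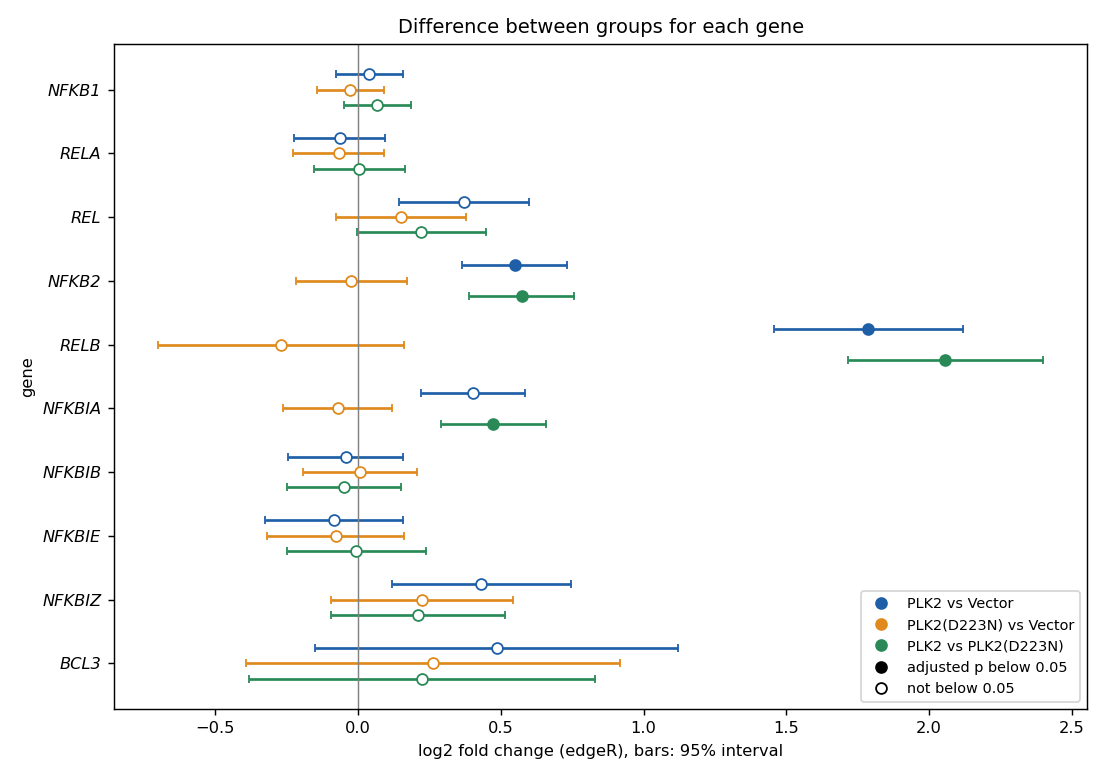
Log2 fold change of the 10 genes in the 3 comparisons, with bars for the 95% interval of the edgeR fit over 9 libraries. RELB at 1.79 and 2.06 stands apart, NFKB2 and NFKBIA lie at 0.40 to 0.57 in both PLK2 comparisons, BCL3 and NFKBIZ at 0.49 and 0.43 against Vector with wide intervals, and the intervals of PLK2(D223N) against Vector all include 0.

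The makeup of the subunit RNA within a library, drawn from the same TPM values and so no separate result, differed with PLK2. NFKB2 and RELB made up 6.81% to 7.60% of the summed TPM of the 5 subunit genes in Vector libraries, 6.58% to 7.17% with PLK2(D223N) and 11% to 12.1% with PLK2. RELB alone was 1.75% to 2.16%, 1.54% to 1.88% and 5.37% to 6.66% of the summed RELA, REL and RELB TPM in the same order. The ratio of RELB to RELA was 0.0323 ± 0.0067 in Vector, 0.0278 ± 0.0031 for PLK2(D223N) and 0.116 ± 0.016 for PLK2 (SD over 3 libraries). That of NFKB2 to NFKB1, the genes of the precursors p100 and p105, was 0.199 ± 0.013, 0.201 ± 0.015 and 0.282 ± 0.0089. NFKBIA made up 39.4% to 39.7% of the TPM of the 3 cytoplasmic inhibitors in Vector libraries, 34.2% to 39.8% with PLK2(D223N) and 45.6% to 48.8% with PLK2. Canonical RNA was still the larger portion in every library. These are RNA shares in bulk cultures, in which a change in a few cells and a smaller change in all cells cannot be told apart, nor fewer cells of a type and less RNA per cell.

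Genes that act upstream of the dimers gave no call in the fit to all 9 libraries. Of 35 kinases, receptors and adaptors listed, 34 were in the table and 32 were tested, and edgeR called 0 in each comparison. At an unadjusted p below 0.05 there were 4 of 32 for PLK2 against Vector, 1 for PLK2(D223N) against Vector and 0 for PLK2 against PLK2(D223N), beside 16.4%, 8.53% and 6.04% of all genes, and neither the DESeq2 Wald test nor limma on log2(TPM + 1) called any. IKBKB was at 36.9 CPM in PLK2 and 36.6 in Vector libraries (log2 0.0084, SE 0.07, edgeR adjusted p = 0.962). CHUK, the gene of IKKα, gave 0.14 (SE 0.08, edgeR adjusted p = 0.397) and IKBKG, the gene of the regulatory subunit NEMO, -0.14 (SE 0.12, edgeR adjusted p = 0.546). The smallest p-values of the list belonged to TAB2 at 0.22 (SE 0.07, edgeR adjusted p = 0.165), RIPK1 at -0.18 (SE 0.06, 0.208) and TAB1 at -0.22 (SE 0.08, 0.226). The list median was -0.03. Without Vector replicate 2, 4 of the 32 tested were called for PLK2 against Vector, in a fit that called 1656 genes in all instead of 66. The 4 were CHUK at 0.24, TAB2 at 0.29 and TAB1 at -0.30, with TBK1 higher. In the fit to the 6 libraries compared, TAB2 at 0.13 and TBK1 were called higher for PLK2 against PLK2(D223N). That fit called 502 genes in all, against 21 in the fit to 9 libraries. Both of these fits called many genes outside the list too, so the counts are not read as particular to it. TBK1, an IKK-related kinase, is named here because it was called there.

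Genes that NF-kB is known to induce were counted next. Of 45 known targets outside the set, 43 were in the table, 24 were tested and 19 were too low to test. PLK2 against Vector called 3 of the 24 higher and 0 lower, beside 0.48% of all genes called higher, with a list median of 0.07. These were TNFRSF9, the receptor 4-1BB, TNFAIP3, the ubiquitin-editing inhibitor A20, and CYLD, a deubiquitinase that restrains IKK signalling. Of 18 feedback inhibitors listed, 17 were tested and 2 were called higher, TNFAIP3 and CYLD, which both lists hold, and the median was -0.02. An unadjusted p below 0.05 was found for 7 of the 24 targets and 6 of the 17 feedback inhibitors, beside 16.4% of all genes. Of these 6, TNFAIP3, CYLD and TAX1BP1 were higher with PLK2, and USP18, TNIP2 and TRAIP were lower. Since the lists were chosen with results known, these counts are a description. TNFRSF9 passed the filter on low counts through the PLK2 libraries alone, so it had to differ once tested, and its call supports nothing on the list. Each count out of the 24 for a PLK2 comparison includes it. PLK2 against PLK2(D223N) also called 3 of the 24, TNFRSF9 among them, and 2 of the 17 higher, beside 0.155% of all genes. An unadjusted p below 0.05 was found for 6 of 24 and 2 of 17, beside 6.04% of all genes. In the fit to the 6 libraries compared, 6 of 24 and 3 of 17 were called higher, where 374 genes in all were. With limma on log2(TPM + 1), which gave no value for TNFRSF9, TNFAIP3 alone of either list was called in both PLK2 comparisons. PLK2(D223N) against Vector called 0 of either list, also by the DESeq2 Wald test and limma, with 1 target and 0 feedback inhibitors at an unadjusted p below 0.05.

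TNFAIP3 was at 7.77 CPM in Vector libraries, 8.93 with PLK2(D223N) and 17.8 with PLK2, with a log2 fold change against Vector of 1.20 (SE 0.09, edgeR adjusted p = 6.49e-06) and against PLK2(D223N) of 1.00 (SE 0.09, edgeR adjusted p = 3.72e-05). TNFRSF9 was at 0.144, 0.165 and 3.13 CPM in the same order, from 7, 8 and 148 estimated counts over the 3 libraries of a group. CYLD was at 65.4, 69.5 and 87.2 CPM, with 0.42 against Vector (SE 0.06, edgeR adjusted p = 0.0050) and 0.33 against PLK2(D223N) (SE 0.06, 0.0382). The CYLD call against Vector was lost with limma on log2(TPM + 1) (adjusted p = 0.124), and that against PLK2(D223N) was lost in 10 of 19 alternatives.

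Genes that followed the members most closely over the 9 libraries were sought by the root mean square difference of centred log2 CPM over the 12287 genes whose mean was 1 CPM or more. For RELB the nearest were PLA2G4C at 0.395, TNFAIP3 at 0.412 and DHRS2 at 0.417, against a median of 0.893 over all genes. For NFKB2 they were PPP1R15A at 0.103, GADD45A at 0.110 and HJURP at 0.120 (median 0.294), and for NFKBIA they were GADD45A at 0.0893, MAFG at 0.0906 and HJURP at 0.0927 (median 0.253). PLA2G4C encodes a phospholipase A2, PPP1R15A and GADD45A are stress-induced genes, and HJURP is a centromere chaperone. PLA2G4C against Vector gave 2.46 (SE 0.20), beside 1.79 for RELB, a difference that was not tested. These distances describe 9 libraries in 3 groups, and any gene that differs between the same groups by a like amount comes near.

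**Figure D4:**
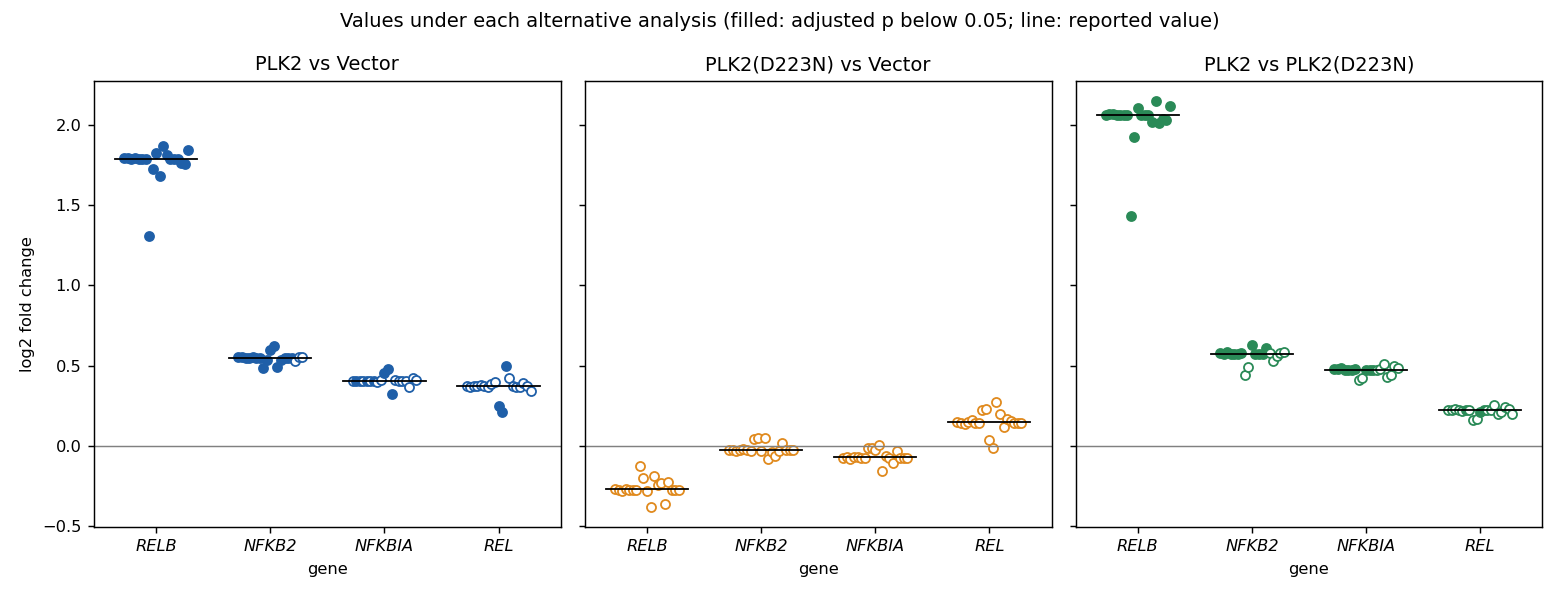
Log2 fold changes of RELB, NFKB2, NFKBIA and REL in the 3 comparisons under the 19 alternatives, with a line at the reported value, filled points where the adjusted p was below 0.05 and open points otherwise. RELB is called in all 19 for PLK2 against Vector and NFKB2 in 16, while NFKBIA is called in 7.

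RELB was the steadiest of the calls. It passed in all 19 alternatives for both PLK2 comparisons, with a log2 fold change of 1.31 to 1.87 against Vector and 1.43 to 2.15 against PLK2(D223N), the lowest values coming from limma on log2(TPM + 1), where the pseudocount shrinks the change of a scarce gene. NFKB2 passed in 16 of 19 against Vector and in 12 of 19 against PLK2(D223N). Outside the set, TNFAIP3 also passed in all 19 for both PLK2 comparisons. No member passed for PLK2(D223N) against Vector in any alternative that gave it a value, which were 16 for BCL3 and 19 for the others.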

How the data were processed

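Polyadenylated RNA of 9 HEK293T libraries was sequenced. Bowtie2, RSEM 1.3.1, DESeq2 1.4.5 and the build GRCh38.p13 are named in the submitters' processing notes. Which tool did what, the annotation and the strandedness of counting are not given there, so reads of a gene and of an antisense partner cannot be told apart. The deposited table gives estimated counts per gene and, per the file headers, TPM made by the authors. A further 18 per-library columns were not used. Of the deposited estimated counts, 87.1% to 88.5% per library lay within 0.005 of a whole number. They were rounded.

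Genes were filtered with filterByExpr, which left 12924, scaled by TMM and fitted over all 9 libraries in edgeR 4.0.16 (glmQLFit, glmQLFTest, robust; R 4.3.3), with group as the only term. P-values were two-sided and adjusted by Benjamini-Hochberg over all genes tested, and a gene was called below 0.05. The p-values of this fit weigh a difference between groups against the spread within groups, estimated over all 9 libraries, the Vector libraries included. Intervals use the standard error and the fit's degrees of freedom. CPM values are on the TMM scale, except sums of markers. Levels of different genes were compared only in TPM.

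The members and the lists of genes were chosen with earlier results of these data known. Named genes are the 10 members, PLK2, IKBKB, IKBKG, CHUK, the called genes of each list or otherwise its 3 smallest p-values, and the 3 nearest genes of RELB, NFKB2 and NFKBIA. The feedback inhibitors at an unadjusted p below 0.05 for PLK2 against Vector are named as well. The marker lists were epithelial, renal and neural, macrophage and microglia, lymphocyte, endothelial and fibroblast, and no marker with enough counts to be tested was called in any comparison. No endothelial marker had enough. Summed lymphocyte markers were at 0.620 to 1.31 CPM, endothelial ones at 0.424 to 0.872 and fibroblast ones at 12.6 to 14.8 over the libraries, and the epithelial sum at 81.1 to 93.8. The renal and neural sum was 9.78 to 13.6.

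The 19 alternatives were DESeq2 size factors, the DESeq2 1.42.0 Wald test, no filter, a stricter filter (all libraries of some group at 10 counts or more, mean at least 1 CPM), the replicate number as a term, the 6 libraries compared alone, PLK2 removed before scaling, limma 3.58.1 on log2(TPM + 1) and log2(TPM + 0.1) for a mean TPM of at least 1, each of 9 libraries left out and, chosen after seeing the data, loess trends with transcript GC content and length removed (span 0.3). Motifs and coordinates came from RefSeq (GRCh38.p14) and GENCODE release 29.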

Additional observations from a re-analysis of the deposited data

How the results depend on the processing

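Of the 30 log2 fold changes of the members (10 genes, 3 comparisons), 23 kept their side of the threshold in every alternative that gave a value and 18 kept their sign. There were 19 alternatives, and 16 for BCL3, which was too low for the stricter filter and both limma fits. Every value that changed sign was uncalled. Genes called for PLK2 against Vector numbered 66, and 116 by the DESeq2 Wald test, 136 without a filter, 23 in the 6-library fit, 19 with limma at either pseudocount, 379 with GC content and length trends removed (252 higher, 127 lower) and 13 to 1656 with 1 library left out (362 without Vector replicate 1, 1656 without Vector replicate 2). Members called were 2, with 4 after the GC correction and 1 to 5 with 1 library left out. For PLK2(D223N) against Vector the genes were 3, with 7 (Wald), 5 (no filter), 8 (GC) and 2 to 347 (1 library left out, the highest without Vector replicate 2), and the members 0 throughout. For PLK2 against PLK2(D223N) they were 21, with 33 (Wald), 35 (no filter), 502 (6 libraries, 374 higher and 128 lower), 11 (limma, either pseudocount), 92 (GC) and 9 to 317 (1 library left out, the highest without Vector replicate 1), and the members 3, with 1 under either limma fit and 1 to 4 with 1 library left out. The cause of these shifts was not tested. Replicate numbers did not pair the libraries: same-numbered libraries correlated at -0.107 to 0.126 and 1 of 9 pairs was over 0.1. With the number as a block, 76, 4 and 20 genes and 3, 0 and 3 members were called, NFKBIA joining against Vector (adjusted p = 0.0488).

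Changed signs, all in log2 units, were these. With GC content and length trends removed, PLK2 against Vector gave 0.0103 for NFKBIB and -0.0061 for CHUK, PLK2(D223N) against Vector -0.011 for CHUK and -0.0125 for CYLD, and PLK2 against PLK2(D223N) 0.0308 for NFKBIE and 0.0013 for IKBKG. With limma at the pseudocounts of 1 and 0.1, PLK2(D223N) against Vector gave 0.0341 and 0.035 for NFKB1 and 0.0415 and 0.0467 for NFKB2, and PLK2 against PLK2(D223N) -0.0491 and -0.0502 for RELA and -0.0117 and -0.0118 for CHUK. Without a filter NFKBIB was at -0.0043 in PLK2(D223N) against Vector and NFKBIE at 0.0039 in PLK2 against PLK2(D223N), and with PLK2 removed before scaling NFKBIB was at -0.00042 in PLK2(D223N) against Vector. With 1 library left out, PLK2 against Vector ran from -0.0507 to 0.0972 for IKBKB, -0.151 to 0.0456 for NFKBIB and -0.133 to 0.0198 for RELA. PLK2(D223N) against Vector ran from -0.0096 to 0.206 for CHUK, -0.0030 to 0.145 for IKBKB, -0.0801 to 0.0494 for NFKB2, -0.153 to 0.0077 for NFKBIA, -0.102 to 0.0942 for NFKBIB, -0.0124 to 0.275 for REL, -0.126 to 0.0159 for RELA, -0.160 to 0.0245 for TAB1 and -0.133 to 0.345 for TNFRSF9. PLK2 against PLK2(D223N) ran from -0.0238 to 0.423 for BCL3, -0.111 to 0.0708 for IKBKG, -0.108 to 0.0062 for NFKBIB, -0.0486 to 0.0647 for NFKBIE, -0.0610 to 0.0531 for RELA and -0.0635 to 0.0182 for RIPK1. Low counts limit BCL3, at 9 to 18 per library, and RELB, at 21 to 28 outside the PLK2 libraries.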
